A study of Homo sapiens with 5 samples.

Results

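Peaks of chromatin immunoprecipitation and sequencing (ChIP-seq) were examined at 7 genes of the NF-kappaB pathway: the subunit genes NFKB1, NFKB2 and REL, the feedback inhibitors NFKBIA and TNFAIP3, and the target genes BIRC3 and CD83. A peak was a member when it lay within 5 kb of a gene's span on the human build hg19, and the 7 windows together cover 305 kb. They held 369 of the 1150695 peaks in 6 deposited lists. Called against IgG, these were 5 of 13499 PRDM11 antibody 1 peaks, 64 of 465837 PRDM11 antibody 2 peaks and 104 of 50161 RNA polymerase II peaks. Called against input, the windows held 10 of 54038, 64 of 486796 and 122 of 80364.

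The chromatin came from untreated U2932 cells, an established human lymphoma line known as a model of the activated B-cell type of diffuse large B-cell lymphoma. Chromatin was precipitated with either of 2 non-commercial rabbit polyclonal antibodies against PRDM11, a PR domain protein, or with a commercial one to RNA polymerase II, while rabbit IgG and unprecipitated input served as controls. With 1 library per antibody, replicate error is unknown and nothing was tested. The 95% intervals are exact (Clopper-Pearson); they reflect counting alone and count neighbouring peaks as if they were unrelated. The lists give positions without read counts, so the depth behind a peak is unknown, and a missing peak shows only that no peak was called there. Where no control is named, the peaks are those called against IgG. Peak lists do not measure expression, and the lymphoid identity of the cells was not checked here.

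NF-kappaB is a family of dimeric transcription factors that bind kappaB sites in DNA. In resting cells they are held in the cytoplasm by IkappaB proteins, and signals from B-cell, toll-like and TNF family receptors release them. The released dimers switch on their own subunit genes and, at the same time, genes that end the response, which makes the loop self-limiting. In the activated B-cell type of lymphoma this pathway is known to be active without an outside signal, and TNFAIP3 is a recurrent target of inactivating mutations.

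The promoters of the 7 genes are shown first, because all antibody 1 peaks in the windows lay at gene starts and because kappaB sites there are the textbook link between the subunits and their feedback genes. RefSeq (build GRCh38.p14) gives 11 start windows for the 7 genes, each running from 250 bases before to 50 bases after a start; 1 window per gene is printed, the most upstream one that holds a match to the kappaB consensus on either strand. Capitals mark these matches, merged where they overlap. The peaks are on another build, so the printed windows were not placed on them.
NFKB1 (chr4:102501109-102501408, plus strand): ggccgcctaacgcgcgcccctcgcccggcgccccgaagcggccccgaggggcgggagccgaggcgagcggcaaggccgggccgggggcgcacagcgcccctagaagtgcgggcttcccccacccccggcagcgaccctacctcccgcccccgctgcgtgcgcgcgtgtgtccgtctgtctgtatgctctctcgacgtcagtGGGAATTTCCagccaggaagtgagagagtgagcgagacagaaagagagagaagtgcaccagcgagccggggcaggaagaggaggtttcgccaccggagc
NFKB2 (chr10:102394328-102394627, plus strand): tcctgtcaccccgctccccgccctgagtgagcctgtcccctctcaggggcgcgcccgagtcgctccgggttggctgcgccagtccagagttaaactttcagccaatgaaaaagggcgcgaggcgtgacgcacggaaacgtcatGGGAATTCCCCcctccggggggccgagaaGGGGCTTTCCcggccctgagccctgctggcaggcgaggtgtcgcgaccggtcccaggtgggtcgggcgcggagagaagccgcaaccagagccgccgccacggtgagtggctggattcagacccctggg
REL (chr2:60881324-60881623, plus strand): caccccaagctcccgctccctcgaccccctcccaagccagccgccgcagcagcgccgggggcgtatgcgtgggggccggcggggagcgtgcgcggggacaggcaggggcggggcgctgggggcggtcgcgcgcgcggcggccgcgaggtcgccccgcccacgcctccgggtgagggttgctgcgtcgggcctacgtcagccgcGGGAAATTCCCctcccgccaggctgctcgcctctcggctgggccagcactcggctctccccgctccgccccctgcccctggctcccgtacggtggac
NFKBIA (chr14:35404700-35404999, minus strand): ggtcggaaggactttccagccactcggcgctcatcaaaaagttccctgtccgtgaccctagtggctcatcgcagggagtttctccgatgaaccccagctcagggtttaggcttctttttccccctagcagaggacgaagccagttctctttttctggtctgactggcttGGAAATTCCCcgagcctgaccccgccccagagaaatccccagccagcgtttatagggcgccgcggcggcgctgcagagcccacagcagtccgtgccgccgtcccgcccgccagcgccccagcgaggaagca
TNFAIP3 (chr6:137867009-137867308, plus strand): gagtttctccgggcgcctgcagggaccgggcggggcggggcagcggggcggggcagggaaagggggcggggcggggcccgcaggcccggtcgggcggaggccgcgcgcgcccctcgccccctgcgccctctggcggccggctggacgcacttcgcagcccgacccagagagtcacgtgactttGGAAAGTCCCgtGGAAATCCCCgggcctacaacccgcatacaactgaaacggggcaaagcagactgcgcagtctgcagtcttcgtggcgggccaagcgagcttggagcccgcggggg
BIRC3 (chr11:102317234-102317533, plus strand): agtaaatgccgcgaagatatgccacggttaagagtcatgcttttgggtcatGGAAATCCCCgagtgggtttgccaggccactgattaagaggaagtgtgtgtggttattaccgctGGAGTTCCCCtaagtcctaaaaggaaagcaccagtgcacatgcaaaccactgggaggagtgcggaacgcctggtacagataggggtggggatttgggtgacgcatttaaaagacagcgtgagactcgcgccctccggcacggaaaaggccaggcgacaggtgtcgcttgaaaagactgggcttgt
CD83 (chr6:14117522-14117821, plus strand): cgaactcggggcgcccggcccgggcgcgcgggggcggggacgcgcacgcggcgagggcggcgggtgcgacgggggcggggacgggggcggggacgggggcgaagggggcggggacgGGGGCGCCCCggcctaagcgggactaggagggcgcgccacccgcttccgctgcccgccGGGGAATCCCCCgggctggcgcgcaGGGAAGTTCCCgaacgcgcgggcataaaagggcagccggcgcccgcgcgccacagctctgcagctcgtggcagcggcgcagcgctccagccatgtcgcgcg

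The kappaB consensus occurred in 8 of the 11 windows, against 11.3% of all 35116 RefSeq promoter windows. That share was not matched for GC content, which ran from 37.0% to 81.3% in the 11 windows. The windows without a match were the second NFKB1 start, the first NFKB2 start and the first CD83 start. Each of the 7 genes had a match in at least 1 window, a count per gene for which no background share was computed. These genes are known NF-kappaB targets, so the matches describe the chosen genes and are not a result of the ChIP libraries. In NFKB1 the match ends 40 bases before the start, and in REL it spans bases -47 to -37 and reads as a match on both strands. TNFAIP3 had 2 matches separated by a pair of bases, between 67 and 46 bases before the start, next to its E-box (CACGTG) at -78 to -73. NFKBIA had 1 match by this consensus, 81 to 72 bases before the start. BIRC3 had 2 matches farther out, at -199 to -190 and -135 to -126, in a window of 53.3% GC, while the printed CD83 window (81.3% GC) had 3 merged sites. NFKB2 had sites at -107 to -97 and -78 to -69 of its second RefSeq start, which is the window printed. The start 1595 bases beyond its first had 2 more sites, and its first start had 0.

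Of 5 other motifs, the GC box was the most frequent in these windows. The AP-1 site (TGANTCA) and the CRE (TGACGTCA) had no match in the 11 windows, against 7.71% and 1.85% of all windows. The GC box (GGGCGG), the site of SP family factors, occurred in 8 of the 11 windows against 45.0% of all, the CCAAT box (CCAAT) in 1 against 34.6%, and the E-box in 1 against 7.26%. No match of one motif overlapped a match of another, and both strands were searched for each. A match describes letters in a window and was not set against the peaks. For these motifs, too, the shares of all windows were not matched for GC content.

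**Figure D1:**
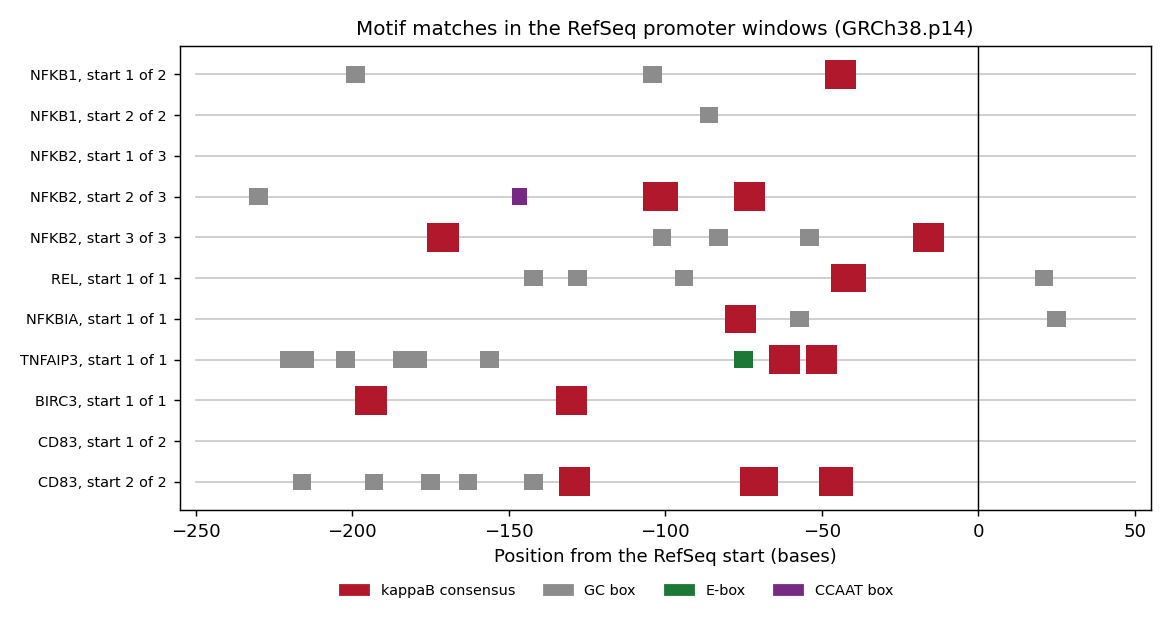
Motif matches along the 11 RefSeq promoter windows of the 7 genes; the x axis is the position in bases from the RefSeq start, each row is 1 listed start, and boxes are matches on either strand. kappaB matches occur in 8 of the 11 windows, all upstream of the start.

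Antibody 1 had a peak within 1 kb of the start of 4 of the 7 genes, antibody 2 of 5, and RNA polymerase II, which makes messenger RNA, of all 7. The share of all gene starts with such peaks was not computed here, since hg19 starts of other genes were not used, so these counts have no background. NFKB1, NFKB2, NFKBIA and TNFAIP3 had peaks of all 3 antibodies at the start. REL had antibody 2 and RNA polymerase II, and BIRC3 and CD83 had RNA polymerase II alone. Each of the 5 antibody 1 peaks lay at a start site, whereas 10 of the 64 antibody 2 peaks and 18 of the 104 RNA polymerase II peaks did.

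The density of peaks in the windows differed between antibodies. Per Mb of window there were 16.4 antibody 1 peaks, against 3.89 per Mb over the 6 chromosomes that carry the genes, a ratio of 4.21. For antibody 2 the values were 210 and 146 per Mb, a ratio of 1.44, and for RNA polymerase II 341 and 13.4 per Mb, a ratio of 25.5. Whole chromosomes include long stretches without genes, so these ratios set gene regions against all sequence and say nothing particular to the NF-kappaB pathway. Antibody 2 peaks in the windows were of the minimum width of 123 bp in 78.1% of cases, nearly the 78.4% of the whole list.

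**Figure D2:**
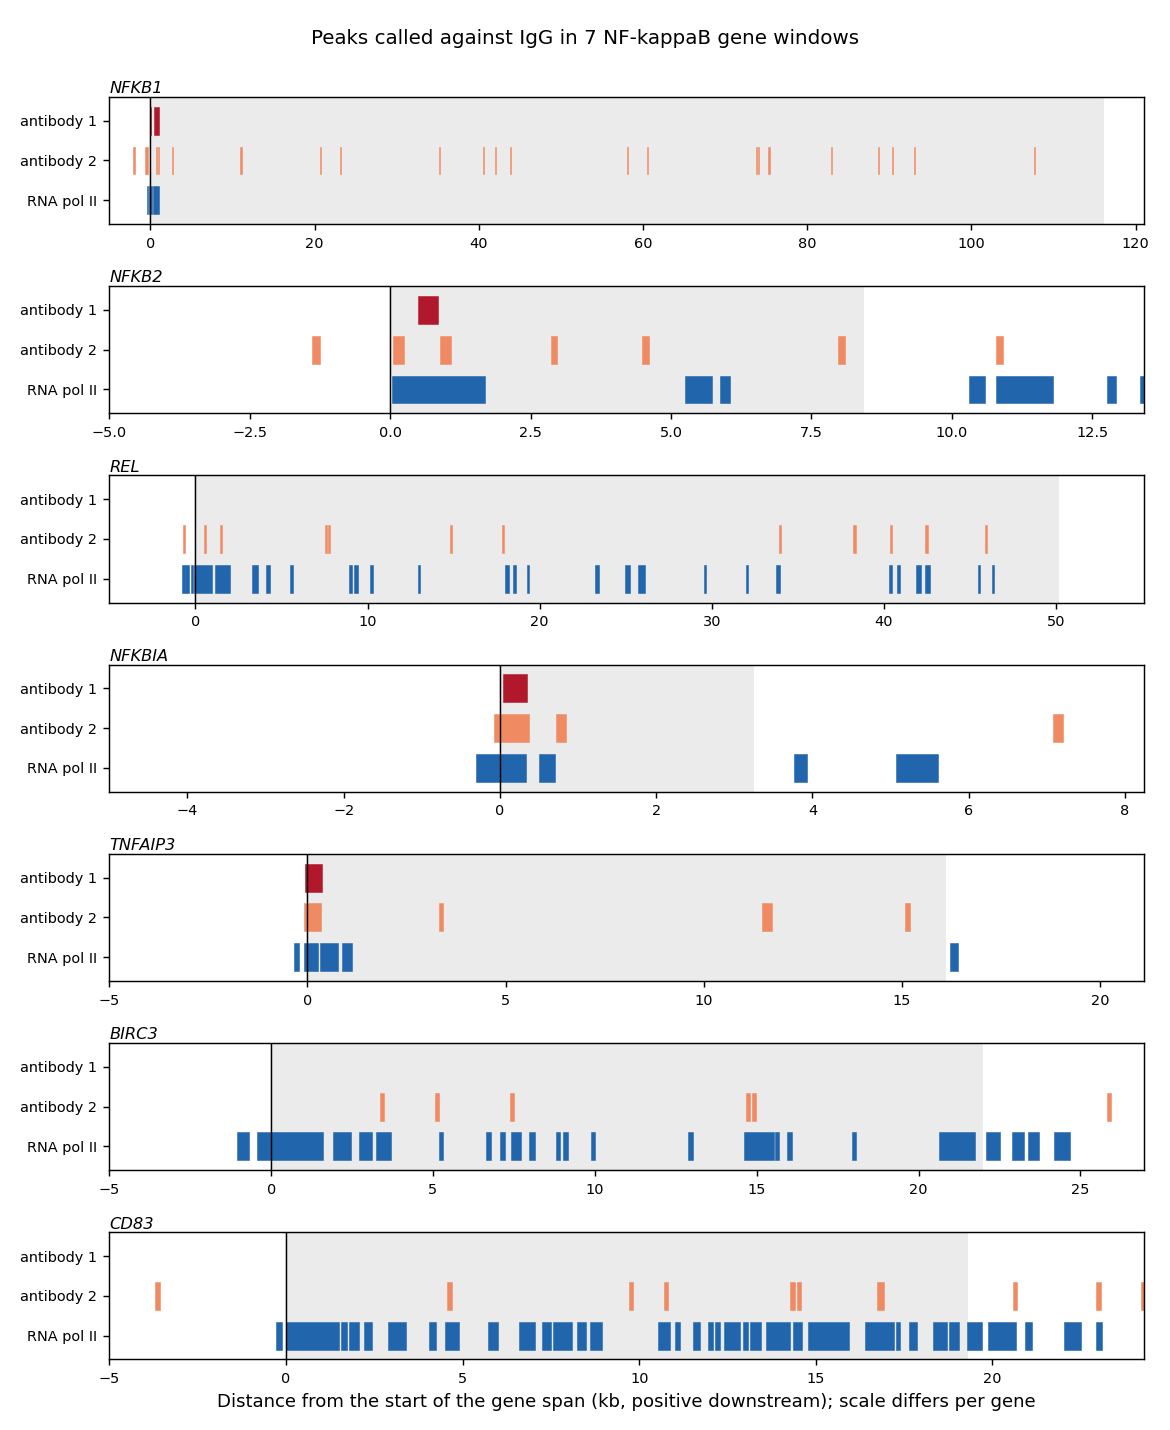
Peaks called against IgG across the 7 gene windows; the x axis is the distance in kb from the start of the gene span in the direction of transcription (a different scale per gene), grey is the span, and boxes are peaks of antibody 1 (top), antibody 2 and RNA polymerase II (bottom). Antibody 1 is seen at the start of 4 genes, while RNA polymerase II fills much of the CD83 window (46.1%) and little of the NFKB1 window (0.914%).

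NFKB1 encodes the precursor of a DNA-binding subunit that lacks a transactivation domain of its own. Its span is chr4:103422486-103538459. It had 2 antibody 1 peaks, of 123 bp (chr4:103422494-103422616) and 607 bp (chr4:103422893-103423499), which begin 8 bp and 407 bp downstream of the start; the 607 bp peak was wider than 93.1% of the antibody 1 list. The 123 bp peak has the minimum width, lay 244 bp from the nearest antibody 2 peak and was wholly inside an RNA polymerase II peak of 321 bp. The 607 bp peak held 2 antibody 2 peaks of 123 bp each, which covered 40.5% of it, and lay wholly inside a 665 bp RNA polymerase II peak. Antibody 2 also had a 362 bp peak ending 237 bp upstream of the start (chr4:103421888-103422249), wider than 99.5% of its list. Against IgG all 3 RNA polymerase II peaks lay at the start and none in the remaining span, where antibody 2 had 18 scattered peaks. Against input RNA polymerase II had 7 peaks, of which 2 lay in the body and 2 downstream, and the body peak at chr4:103462968-103463102 overlapped an antibody 2 peak.

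NFKB2 encodes the precursor subunit of the non-canonical branch of the pathway. Its span is chr10:104153867-104162281. The single antibody 1 peak of 358 bp (chr10:104154369-104154726) lay 502 to 859 bp downstream of the start, inside an RNA polymerase II peak of 1658 bp (chr10:104153893-104155550) that was wider than 99.0% of that list. Antibody 2 had peaks of 185 bp and 202 bp on either side of it, the nearer one (chr10:104154758-104154959) with a gap of 31 bp, so the 2 PRDM11 antibodies did not overlap at this gene. Further RNA polymerase II peaks lay in the body (2) and downstream of the span (4), including one of 1027 bp at chr10:104164648-104165674. In RefSeq's gene order PSD is the next protein-coding gene downstream of NFKB2, and whether the downstream peaks lie in it was not examined.

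REL encodes c-Rel, a subunit with a transactivation domain that is prominent in lymphocytes. Its span is chr2:61108656-61158745. No antibody 1 peak was called against IgG within 5 kb, and the nearest on the chromosome began 111 kb downstream of the start. Antibody 2 had 12 peaks, 11 of them of 123 bp and the widest of 124 bp, with 2 at the start site (chr2:61107929-61108052 and chr2:61109145-61109267). RNA polymerase II had 27 peaks spread over the gene, 4 of them at the start, where the widest reached 1004 bp (chr2:61108590-61109593). They covered 12.0% of the window.

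NFKBIA encodes IkappaB-alpha, the inhibitor that returns NF-kappaB to the cytoplasm. It lies on the minus strand and its span is chr14:35870717-35873955. The antibody 1 peak of 303 bp (chr14:35873612-35873914), 41 to 343 bp downstream of the start, lay wholly inside a 440 bp antibody 2 peak (chr14:35873586-35874025) that was wider than 99.8% of the antibody 2 list. RNA polymerase II had a 646 bp peak across the start (chr14:35873619-35874264), which covered 97.7% of the antibody 1 peak. Antibody 2 had a further 123 bp peak at the start and one downstream. No peak lay in the part of this short gene more than 1 kb from the start. Beyond the end RNA polymerase II had peaks of 162 bp and 537 bp, and the nearest antibody 1 peak outside the window was 421 kb away.

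TNFAIP3 encodes a ubiquitin-editing enzyme that shuts down signalling upstream of NF-kappaB. Its span is chr6:138188351-138204449. All 3 antibodies met at the start: antibody 1 had a 433 bp peak (chr6:138188280-138188712) and antibody 2 a 409 bp peak (chr6:138188272-138188680), both across the start, and antibody 2 covered 92.6% of the antibody 1 peak. RNA polymerase II had 4 peaks at the start, 2 of which (345 bp and 435 bp) overlapped the antibody 1 peak and covered 86.8% of it. The antibody 1 peak was wider than 86.0% of its list and the antibody 2 peak than 99.7%. Against input, antibody 2 had separate peaks of 173 bp and 123 bp there, which covered 66.5% of the antibody 1 peak. Within the gene body antibody 2 had 3 peaks, the widest of 250 bp (chr6:138199829-138200078), and RNA polymerase II had none. The antibody 1 peak stood alone: the nearest other one on the chromosome was 1045 kb away.

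BIRC3 encodes a ubiquitin ligase of the inhibitor-of-apoptosis family that is induced by NF-kappaB and acts in TNF receptor signalling. Its span is chr11:102188181-102210135. Neither PRDM11 antibody had a peak within 1 kb of the start, although RNA polymerase II had a 2030 bp peak across it (chr11:102187756-102189785), wider than 99.5% of that list. RNA polymerase II had 23 peaks in all, covering 29.7% of the window, among them 4 beyond the 3' end. Antibody 2 had 6 peaks, each of 123 bp, the nearest beginning 3364 bp downstream of the start. Antibody 1 had none in the window; the nearest (chr11:102217512-102218324, 813 bp) lay 7377 bp past the 3' end and overlapped both antibody 2 and RNA polymerase II peaks. BIRC2, a related family member, is the next protein-coding gene downstream in RefSeq's order.

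CD83 encodes a surface glycoprotein of activated B cells and dendritic cells that is a known NF-kappaB target. Its span is chr6:14117872-14137149. Against IgG it had the most RNA polymerase II peaks of the 7 genes, 35 (against input REL had more), covering 46.1% of the window, among them a 187 bp peak that ends 98 bp upstream of the start, a 1498 bp peak that begins at the start (chr6:14117872-14119369) and 5 peaks past the 3' end. Antibody 1 had no peak in the window, and the nearest began 93.7 kb downstream of the start. Antibody 2 had 10 peaks, 9 of them of 123 bp, and none nearer to the start than 3576 bp; 7 of the 10 overlapped RNA polymerase II.

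**Figure D3:**
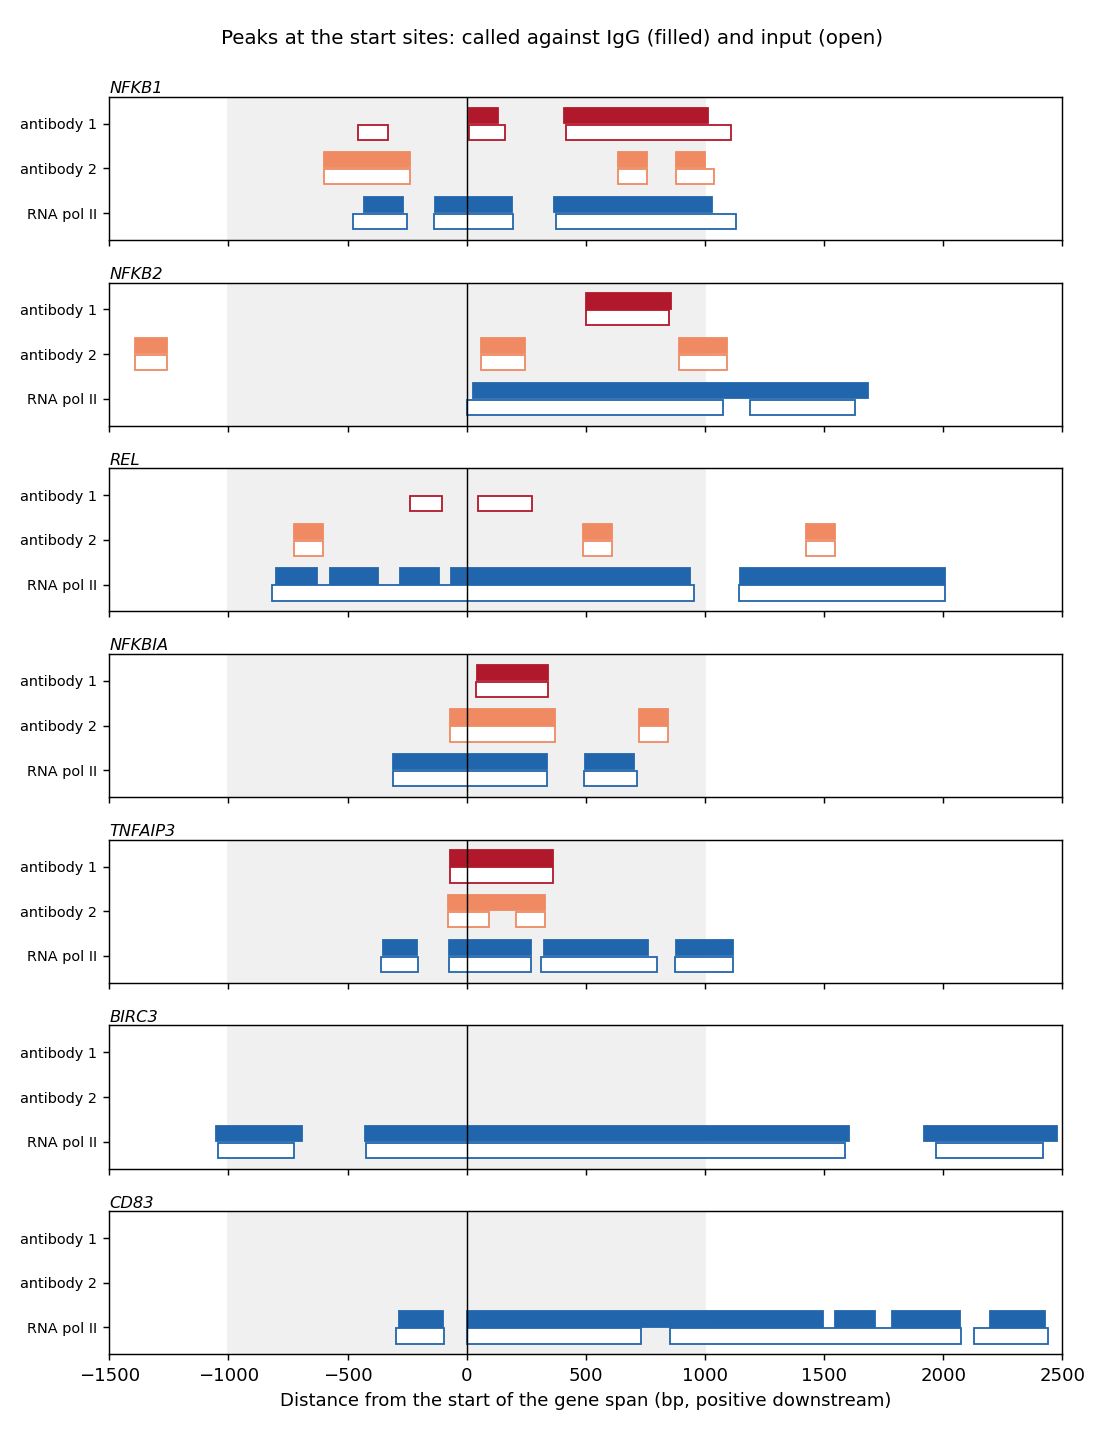
Peaks around the 7 start sites; the x axis is the distance in bp from the start of the gene span in the direction of transcription, filled boxes are peaks called against IgG, open boxes those called against input, and grey marks 1 kb on either side. NFKB1, NFKBIA and TNFAIP3 have overlapping peaks of all 3 antibodies, and NFKB2 has adjoining but separate PRDM11 antibody peaks. BIRC3 and CD83 have RNA polymerase II alone within 1 kb.

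Taken over the windows, 3 of the 5 antibody 1 peaks (60.0%, interval 14.7% to 94.7%) overlapped an antibody 2 peak, against 47.2% of the whole antibody 1 list, and 5 of 5 (interval from 47.8%) overlapped an RNA polymerase II peak, against 55.2%. Both list values lie inside the intervals, so no difference from the list was detectable with the 5 peaks called against IgG; the 10 called against input gave another reading for RNA polymerase II, described with the input lists. Of the 64 antibody 2 peaks, 4 (6.25%, 1.73% to 15.2%) overlapped antibody 1, against 1.59% of the list, and 26 (40.6%, 28.5% to 53.6%) overlapped RNA polymerase II, against 3.20%. RNA polymerase II peaks cover 12.5% of the windows and 0.483% of the 6 chromosomes, which raises the room for such overlap in the windows. The part of this coverage in the 40.6% was not tested.

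Seen from RNA polymerase II, the pooled share of peaks with antibody 1 was lower in the windows than in the list, but it differed between genes. Of 104 member peaks 6 (5.77%, 2.15% to 12.1%) overlapped an antibody 1 peak, against 14.3% of the list, and 23 (22.1%, 14.6% to 31.3%) overlapped an antibody 2 peak, against 25.6%. The share with antibody 1 was below that of the list among peaks of up to 499 bp (3 of 85, 3.53% against 9.50%), of 500 to 999 bp (2 of 12, 16.7% against 33.7%) and of 1000 bp or wider (1 of 7, 14.3% against 38.6%). With antibody 2 the counts were 14 of 85 (16.5% against 19.7%), 6 of 12 (list 46.8%) and 3 of 7 (42.9% against 65.9%) in the same width classes. No intervals were computed by width and the overlaps per class are few, so no difference from the list is read from any class. Peaks of 1 gene are not independent, however: REL, BIRC3 and CD83, the genes without an antibody 1 peak, hold 85 of the 104 (81.7%), so the pooled share is mainly theirs. By definition 0 of these 85 overlapped antibody 1, whereas 6 of the 19 at the other 4 genes did. By gene, antibody 1 overlapped 2 of 3 RNA polymerase II peaks at NFKB1, 1 of 7 at NFKB2, 1 of 4 at NFKBIA and 2 of 5 at TNFAIP3.

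Counting genes in place of peaks removes this weighting. RNA polymerase II peaks no more than 3 kb apart were joined into 20492 clusters over the genome, and the cluster at each start site was taken. The CD83 cluster had 35 peaks over 23387 bp and ranked 29 by number of peaks; the BIRC3 cluster, with 23 peaks over 25735 bp, ranked 99. At REL the start-site cluster had 8 peaks, at TNFAIP3 4, at NFKB1 3, at NFKBIA 2 and at NFKB2 1. Antibody 1 lay in 4 of these 7 clusters, those of NFKB1, NFKB2, NFKBIA and TNFAIP3, against 28.1% of all clusters, and antibody 2 in 7 of 7, against 47.1%.

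The share of clusters with an antibody 1 peak was 21.3% for clusters of 1 RNA polymerase II peak (the class of NFKB2), 34.9% for 2 (NFKBIA), 37.7% for 3 to 4 (NFKB1 and TNFAIP3) and 32.7% for 5 to 9 (REL). It was 40.5% for 10 to 19, 49.3% (41.0% to 57.7%) for 20 to 39 (BIRC3 and CD83) and 80.0% for 40 or more. A cluster with as many peaks as that of BIRC3 or CD83 thus lacked antibody 1 in about as many cases as not. Among clusters with a like number of RNA polymerase II bases (0.8 to 1.25 times those of the gene), the share with antibody 1 was 50.3% for NFKB1, 50% for NFKB2, 45.9% for NFKBIA and 51.1% for TNFAIP3, and 41.0% for REL, 52.5% for BIRC3 and 52.6% for CD83. The count of 4 of 7 is close to these shares and is not a result about the members. The 7 clusters had 1 to 8 antibody 2 peaks each. In the same size classes antibody 2 lay in 29.2%, 55.6%, 71.3%, 85.5%, 96.6%, 100% and 100% of all clusters, from 1 peak up to 40 or more.

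**Figure D4:**
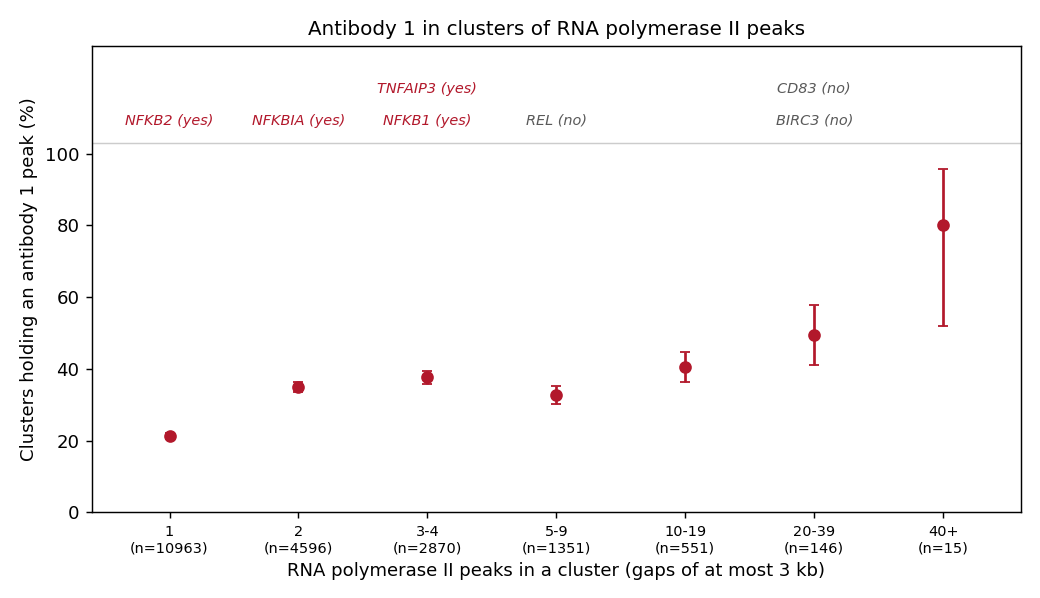
Share of RNA polymerase II clusters that hold an antibody 1 peak, by the number of peaks in the cluster (points, with exact 95% intervals; n is the number of clusters), with the start-site cluster of each gene named above its class and marked yes or no for antibody 1. The genome-wide share is 49.3% in the class of BIRC3 and CD83, which have none.

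The control library changed some of these calls. All 5 antibody 1 peaks called against IgG were found again against input (interval from 47.8%), where 81.3% of the whole list was. So were 57 of 64 antibody 2 peaks (89.1%, 78.8% to 95.5%, against 93.2% of the list) and 96 of 104 RNA polymerase II peaks (92.3%, 85.4% to 96.6%, against 89.4%). Each interval holds the list value. Against input antibody 1 had 5 further peaks. REL gained 2 of them at the start, of 137 bp (chr2:61108417-61108553) and 230 bp (chr2:61108702-61108931), both inside a 1771 bp RNA polymerase II peak and neither in an antibody 2 peak. NFKB1 gained a 128 bp peak upstream of the start (chr4:103422029-103422156) and a 123 bp peak in the body, and CD83 a 123 bp peak 15649 bp downstream of its start. The 128 bp peak lay wholly inside an antibody 2 peak and inside an RNA polymerase II peak. The NFKB1 body peak overlapped neither, and the CD83 peak overlapped RNA polymerase II only. BIRC3 had no antibody 1 peak against either control.

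With input as the control, 3 of the 6 overlaps stood differently to their lists. Of the 10 antibody 1 peaks, 4 overlapped antibody 2 (interval 12.2% to 73.8%, list 34.8%) and 9 overlapped RNA polymerase II (90.0%, 55.5% to 99.7%, against 44.9%). The list value of the RNA polymerase II overlap lies outside this interval, whereas with the 5 peaks called against IgG it lay inside. The 10 peaks are not independent: 4 lay in the NFKB1 window, and 2 at REL lay in the same RNA polymerase II peak. Called against input, RNA polymerase II peaks cover 15.0% of the windows and 0.639% of the 6 chromosomes. The part of this coverage in the 90.0% was not tested. Of the 64 antibody 2 peaks, 6 overlapped antibody 1 (9.38%, 3.52% to 19.3%, against 5.05%), an interval that holds the list value, as that against IgG did not. RNA polymerase II overlapped 27 of them (42.2%, 29.9% to 55.2%, against 6.29%). Of the 122 RNA polymerase II peaks, 9 overlapped antibody 1 (7.38%, 3.43% to 13.5%, against 29.4%). Antibody 2 overlapped 23 (18.9%, 12.3% to 26.9%, against 29.6%), where the list value lies outside the interval and against IgG lay inside. The 122 peaks are not independent either: 44 lay in the REL window and 37 in the CD83 window, so the pooled shares are mainly those of few genes. Peaks called against input that were also found against IgG numbered 5 of 10 for antibody 1 (interval 18.7% to 81.3%, which holds the list value of 19.5%). For antibody 2 they numbered 58 of 64 (90.6%, 80.7% to 96.5%, against 89.1%) and for RNA polymerase II 92 of 122 (75.4%, 66.8% to 82.8%, against 52.4%).

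RNA polymerase II had more peaks against input at NFKB1, NFKB2, REL and CD83 and fewer at BIRC3. NFKB1 had 3 peaks against IgG and 7 against input, with 26 and 47 in the 1-Mb bin that holds its start. REL had 27 peaks against IgG and 44 against input; BIRC3 had 23 against IgG and 16 against input. In their bins the counts were 82 and 93 for REL and 40 and 28 for BIRC3. Antibody 2 peaks at BIRC3 numbered 6 against IgG and 2 against input, with 171 and 122 in the bin. Antibody 1 had 1 to 16 peaks against IgG and 1 to 20 against input in the 7 bins. The part of the surrounding bin in these differences was not tested.

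**Figure D5:**
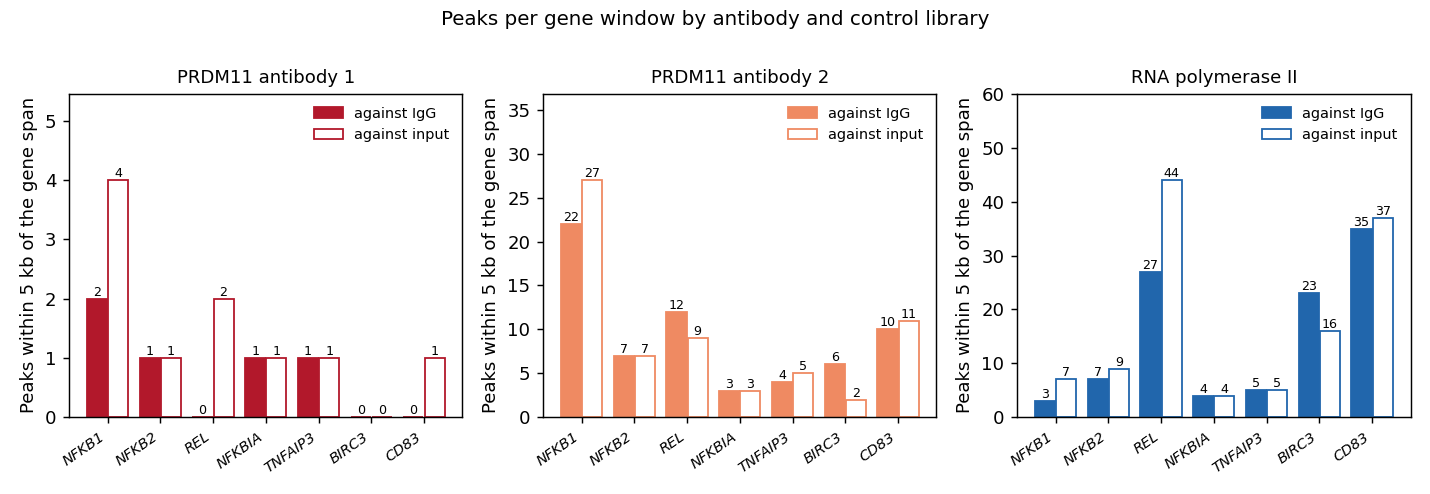
Number of peaks within 5 kb of each gene span, by antibody (panels); filled bars are lists called against IgG and open bars lists called against input. Antibody 1 gains peaks at NFKB1, REL and CD83 against input, and RNA polymerase II has more peaks against input at NFKB1 (3 and 7) and REL (27 and 44) and fewer at BIRC3 (23 and 16).

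At the limit of the windows, the outermost RNA polymerase II peak counted lay 4944 bp past the end of NFKB2 (209 bp wide), and the first one not counted lay 5042 bp past the end of REL (1208 bp wide). For antibody 2 the corresponding peaks were both 123 bp wide, 4918 bp past the end of CD83 and 5134 bp upstream of REL.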

How the data were processed

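ChIP-seq was done on 1 library each of PRDM11 antibody 1, PRDM11 antibody 2, RNA polymerase II, IgG and input. Bowtie 0.12.7, SAMtools and MACS2 2.0.9 are listed with build hg19, per the submitters' processing notes, without their roles or settings; how duplicate reads were handled is not stated. The authors deposited 6 peak lists, per ChIP library and control, with a q threshold of 0.1 by their names. Each holds chromosome, start and end only. Starts are counted from 0 and are printed from 1.

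Gene spans came from the rule that defines the windows, strands and promoter sequences from RefSeq (GRCh38.p14; 7 of 7 symbols matched). The members, lists and motifs were chosen with earlier results of these data known. Peaks overlapped when they shared at least 1 bp. A peak within 1 kb of the 5' end of a span was a start-site peak, and any other peak touching the span was a body peak. Named were all 7 genes, all antibody 1 peaks, and start-site or widest peaks; other single peaks were named after their values were seen. Other pathway genes were planned but not used here, since their hg19 positions were not at hand. Clusters of RNA polymerase II peaks were added after seeing the data. Alternatives changed the control, window, start distance, overlap and peak width. Python 3.11.15, NumPy 2.4.6, SciPy 1.17.1 and matplotlib 3.10.9 were used; overlap code was tested on simulated data.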

Additional observations from a re-analysis of the deposited data

How the results depend on the processing

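Of 76 alternatives, 67 left their result within its exact interval (shares) or within a factor of 1.5 (counts and densities), and 9 did not. Called against input, antibody 1 had 10 peaks in the windows in place of 5, and a density of 32.8 per Mb in place of 16.4. Over the 6 chromosomes its density was 10.9 per Mb in place of 3.89, so the ratio was lower, 3.00 in place of 4.21. Limited to peaks of 200 bp or wider, antibody 2 had 9 peaks (29.5 per Mb) and RNA polymerase II 66 (216 per Mb), and 7.58% of RNA polymerase II peaks overlapped antibody 2; fewer peaks remain by construction. Requiring 50% coverage gave 1.92% of RNA polymerase II peaks on antibody 1 and 6.73% on antibody 2, which is lower by construction. The whole-list shares under the width and coverage settings are not given, so the 7.58%, 1.92% and 6.73% have no background here. For antibody 1 shares, 5 peaks leave intervals too wide for a change to show. The number of genes with an antibody 1 start-site peak was 3 to 5 over its alternatives, and with an RNA polymerase II one 7 in each. Joining clusters over 5 kb, chosen after seeing the data, put antibody 1 in 5 of 7 clusters, adding BIRC3, and input lists gave 6. The share of all clusters is not given for either setting, so these counts have no background. In the whole lists, 29.4% of RNA polymerase II peaks overlapped antibody 1 against input and 14.3% against IgG. No paired analysis was possible because each group has 1 library. Read depth is unknown.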
